A study of Mus musculus with 15 samples.

Results

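The genes described here are 10 transcription factor genes that answer quickly to signaling through the MEK and ERK kinases: Fos, Fosb, Fosl1, Jun and Junb of the AP-1 family, Egr1 and Egr2 of the EGR family, and Etv1, Etv4 and Etv5 of the PEA3 group of ETS factors. Each gene was read from the probe set that carried its symbol alone and had the highest mean over the 15 arrays. Such a probe set existed for 9 of the 10 genes, out of 18193 genes in all. Etv1 was represented only by probe sets that carry more than 1 gene symbol, so no value is given for it. Signals are from an Affymetrix mouse whole-genome expression array and are given on the log2 scale.

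The tumors grew from PDA30364, a line of pancreatic ductal adenocarcinoma cells from a primary tumor of an Elas-tTA/TetO-Cre mouse, whose Cre is driven from the elastase promoter, so all 4 groups share the same genetic background and come from 1 line. Cells in PBS and Matrigel were placed under the flank skin of C57BL/6-Ly5.1 mice of 6 to 12 weeks, and tumor pieces were taken on day 26. The groups were MEKi/CD40 Ab (GDC-0623 plus anti-CD40 mIgG1, n = 4), MEKi (GDC-0623 plus control IgG, n = 3), CD40 Ab (vehicle plus anti-CD40 mIgG1, n = 4) and control (vehicle plus control IgG, n = 4), written MEKi+CD40, MEKi, CD40 and Ctrl in the plots. GDC-0623, an inhibitor of the kinase MEK, was given daily at 30 mg/kg for about 2 weeks. The agonist antibody (Ab), which triggers the costimulatory receptor CD40 on antigen-presenting cells, was injected intraperitoneally on treatment days 3, 5 and 7 and 1 day before analysis. Each array came from a different tumor.

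Immediate early genes are switched on within minutes of a growth signal, without new protein synthesis. ERK and its downstream kinases phosphorylate serum response factor partners such as Elk1, and these drive Fos, Egr1 and related genes. FOS proteins pair with JUN proteins to form AP-1, which binds DNA. EGR factors are zinc finger proteins that bind GC-rich sites. The PEA3 factors are transcribed downstream of ERK and are used as readouts of the pathway in tumors. All of these genes are also expressed by immune cells, fibroblasts and muscle, and because whole tumor pieces were profiled, fewer cells of a type and less RNA per cell cannot be told apart.

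Promoter sequences are shown for the members in which a searched motif lay within the 250 bases before a RefSeq start site. They let these matches be read beside the levels of the genes. Elements outside those 250 bases were not searched, so a motif not shown here can still lie elsewhere in the gene's control regions. RefSeq promoters (build GRCm38.p6) were available here for 7 of the 10 members, and that of Jun carried a Jun-type AP-1 site (TGACATCA) from 45 to 38 bases before the start. The lines below give the last 120 bases before each start, 5′ to 3′ on the gene's own strand, with the motif matches in capitals.
Jun promoter, chr4:95052223-95052342, minus strand: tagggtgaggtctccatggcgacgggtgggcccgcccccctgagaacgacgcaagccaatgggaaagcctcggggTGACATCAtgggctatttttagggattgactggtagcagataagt
Fosb promoter, chr7:19310046-19310165, minus strand: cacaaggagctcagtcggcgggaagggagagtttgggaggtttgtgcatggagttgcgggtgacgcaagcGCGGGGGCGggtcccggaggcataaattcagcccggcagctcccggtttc
Fos promoter, chr12:85473770-85473889, plus strand: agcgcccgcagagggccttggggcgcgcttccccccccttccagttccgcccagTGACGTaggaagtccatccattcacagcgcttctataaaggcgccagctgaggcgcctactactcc
Egr2 promoter, chr10:67537749-67537868, plus strand: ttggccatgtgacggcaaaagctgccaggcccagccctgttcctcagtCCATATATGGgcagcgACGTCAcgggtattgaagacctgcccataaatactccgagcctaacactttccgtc

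The capitals in Fosb are an EGR site (GCGGGGGCG), those in Fos a short form of the cyclic AMP response element (TGACGT), and those in Egr2 a CArG box, the site of serum response factor, followed by that short element on the other strand. Motifs were searched on both strands. The Jun-type site was found in 2.93% of the 32851 RefSeq promoters in the same window, the EGR site in 2.57%, the short element in 6.47% and the CArG box in 1.47%. Egr2 has 5 listed starts, and the one shown is the third. Neither the full AP-1 site (TGANTCA, 6.75% of promoters), the full response element (TGACGTCA, 1.55%) nor the ETS site searched (CCGGAAG, 6.91%) was in any of the 7 promoters. These are matches of letters in a short window, not measured binding.

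In MEKi/CD40 Ab tumors, 5 of the 9 measured members fell against control: Etv4, Etv5, Fosl1, Egr1 and Fosb. None rose. Over all genes, 19.0% passed the same test in either direction and 8.72% passed it downward (limma, Benjamini-Hochberg adjusted p under 0.05). The median log2 fold change (FC) of the 9 members was -0.66, beside -0.04 over all genes. In MEKi tumors, 3 of the 9 members fell against control, Etv4, Etv5 and Fosb, and none rose, where 21.1% of all genes passed in either direction and 10.4% downward. The members' median log2 FC was -0.29, beside -0.04. In CD40 Ab tumors 0 of the 9 members passed in limma, none of them had an unadjusted p under 0.05 except Etv4, and 1.06% of all genes passed. These 3 comparisons share the control arrays.

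Between the treated groups, 0 of the 9 members passed in MEKi/CD40 Ab against MEKi tumors by limma, where 4.03% of all genes passed. Unadjusted p-values under 0.05 were given there by Fos, Fosl1, Jun and Egr1, and Fos and Jun had adjusted p = 0.0514 and adjusted p = 0.053. In MEKi/CD40 Ab against CD40 Ab tumors, Fosl1, Egr1, Etv4 and Etv5 fell and Jun rose, 5 of 9 members, where 6.22% of all genes passed. In MEKi against CD40 Ab tumors, Fos rose and Etv5 fell, 2 of 9 members, where 12.6% of all genes passed.

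**Figure D1:**
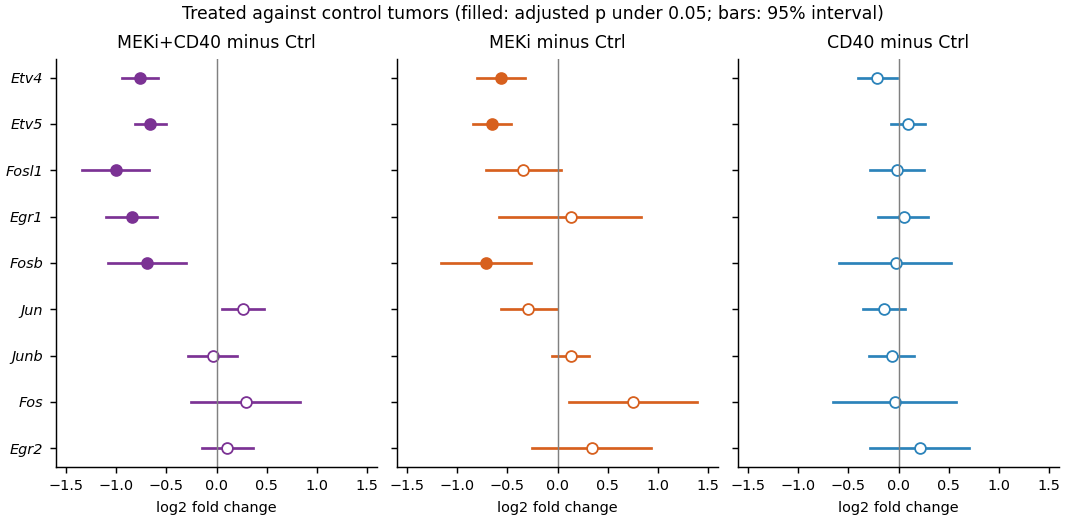
Log2 FC of each member in MEKi+CD40, MEKi and CD40 tumors minus Ctrl tumors (x axis), with the 95% interval of the limma fit as bars and filled points for adjusted p under 0.05. In the MEKi+CD40 panel the 5 filled points lie between -1.0 and -0.66, and in the CD40 panel no point is filled.

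Etv4, a PEA3 factor that drives invasion and growth programs in epithelial tumors, measured 7.22, 7.28, 7.19 and 7.11 in MEKi/CD40 Ab tumors, 7.32, 7.31 and 7.57 in MEKi tumors, 7.67, 7.90, 7.67 and 7.77 in CD40 Ab tumors, and 8.08, 7.84, 8.09 and 7.84 in control tumors (log2 signal). All 7 tumors with the inhibitor were below all 8 without it. Against control, the log2 FC was -0.76 ± 0.08 (SE) in MEKi/CD40 Ab tumors, a 0.589-fold signal (adjusted p = 0.000479), and -0.56 ± 0.11 in MEKi tumors (adjusted p = 0.00995). The group means stood in the order control, CD40 Ab, MEKi and MEKi/CD40 Ab. Neighbors in that order did not pass: MEKi/CD40 Ab against MEKi gave -0.20 (adjusted p = 0.303), MEKi against CD40 Ab -0.35 (adjusted p = 0.0655) and CD40 Ab against control -0.21 (adjusted p = 0.453). Etv4 in MEKi/CD40 Ab against CD40 Ab tumors was -0.55 ± 0.07 (adjusted p = 0.00549).

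Etv5, the close relative of Etv4 that ERK signaling also raises, separated the inhibitor tumors from the others most plainly. Its signal was 7.70, 7.86, 7.91 and 7.76 in MEKi/CD40 Ab tumors, 7.94, 7.75 and 7.76 in MEKi tumors, 8.40, 8.68, 8.59 and 8.56 in CD40 Ab tumors, and 8.48, 8.35, 8.51 and 8.52 in control tumors. No tumor with the inhibitor reached the lowest tumor without it. The log2 FC was -0.66 ± 0.07 in MEKi/CD40 Ab against control (adjusted p = 0.000487) and -0.65 ± 0.08 in MEKi against control (adjusted p = 0.00194), which is a 0.634-fold and a 0.638-fold signal. Etv5 in MEKi/CD40 Ab against MEKi tumors was -0.01, with a 95% interval of -0.21 to 0.19, and in CD40 Ab against control tumors it was 0.09, with an interval of -0.08 to 0.26. It was also lower against CD40 Ab tumors, by -0.75 ± 0.08 in MEKi/CD40 Ab tumors (adjusted p = 0.00205) and -0.74 ± 0.09 in MEKi tumors (adjusted p = 0.00378).

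**Figure D2:**
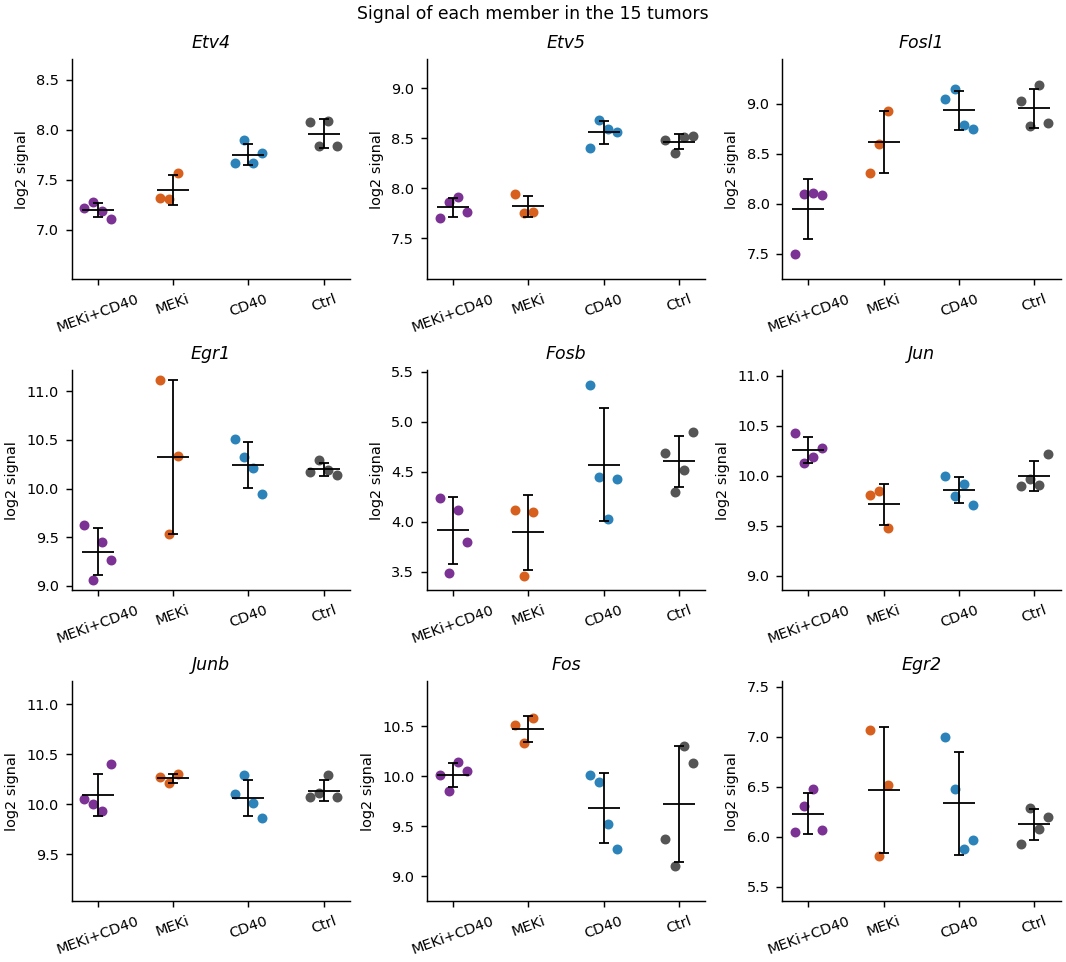
Log2 signal (y axis) of each of the 9 measured members in every tumor, 1 point per array, by group (x axis), with the mean as a horizontal line and the SD as bars. Etv4 and Etv5 were lower in all 7 inhibitor tumors than in all 8 others, whereas Fosl1 and Egr1 were lowest in the 4 MEKi+CD40 tumors, apart from MEKi replicate 2 for Egr1 at 9.53, just below MEKi+CD40 replicate 1 at 9.63.

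Fosl1 encodes Fra-1, the AP-1 subunit tied to ERK signaling and to mesenchymal and invasive states of carcinoma. It read 7.50, 8.10, 8.11 and 8.09 in MEKi/CD40 Ab tumors, 8.31, 8.60 and 8.93 in MEKi tumors, 9.05, 9.15, 8.79 and 8.75 in CD40 Ab tumors, and 9.03, 8.78, 9.19 and 8.81 in control tumors. On this probe set, the 4 MEKi/CD40 Ab tumors were below all others, while MEKi tumors overlapped control tumors. In MEKi/CD40 Ab against control tumors the log2 FC was -1.0 ± 0.15, a 0.499-fold signal (adjusted p = 0.00251), and against CD40 Ab tumors it was -0.99 ± 0.15 (adjusted p = 0.0105). Against MEKi tumors the value was -0.66 ± 0.19, which did not pass (adjusted p = 0.127), and MEKi against control was -0.34 ± 0.16 (adjusted p = 0.195). CD40 Ab and control tumors had nearly the same Fosl1 mean, 8.94 ± 0.20 and 8.95 ± 0.19 (SD, n = 4 each).

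Fosb, an AP-1 subunit of sustained stimulation, was dim on this array. Its values were 4.24, 3.49, 4.12 and 3.80 in MEKi/CD40 Ab tumors, 4.12, 3.46 and 4.10 in MEKi tumors, 5.37, 4.45, 4.03 and 4.43 in CD40 Ab tumors, and 4.69, 4.30, 4.52 and 4.90 in control tumors, whereas the array medians over all probe sets ran from 5.16 to 5.24. Both inhibitor groups lay below the control group, and CD40 Ab tumors overlapped all groups. The log2 FC was -0.69 ± 0.17 in MEKi/CD40 Ab against control (adjusted p = 0.0284) and -0.71 ± 0.19 in MEKi against control (adjusted p = 0.0425). The first call was lost without control replicate 1, 3 or 4 or without MEKi/CD40 Ab replicate 2 or 4 (log2 FC -0.72 to -0.55, highest adjusted p = 0.0793). The second was lost without control replicate 1, 3 or 4 or without MEKi replicate 2 or 3 (log2 FC -0.81 to -0.49, highest adjusted p = 0.106), and both were lost in the fit of all 15 arrays (adjusted p = 0.0975 and adjusted p = 0.0787).

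Fos, the founding AP-1 gene and the textbook target of ERK through Elk1 and serum response factor, was highest in MEKi tumors. It measured 10.01, 9.85, 10.14 and 10.05 in MEKi/CD40 Ab tumors, 10.51, 10.33 and 10.58 in MEKi tumors, 10.01, 9.94, 9.52 and 9.27 in CD40 Ab tumors, and 9.37, 9.10, 10.30 and 10.13 in control tumors. All 3 MEKi tumors lay above the other 12, and the control tumors were spread over more than 1 log2 unit. The log2 FC in MEKi against control was 0.75 ± 0.28 with a 95% interval of 0.11 to 1.39 (adjusted p = 0.111). It passed in the fit of all 15 arrays (adjusted p = 0.0428) and was 0.34 with the tumor series (adjusted p = 0.753) and 0.25 with muscle and skin levels as covariates (adjusted p = 0.865). The value for MEKi/CD40 Ab against control was 0.29 ± 0.24 (adjusted p = 0.479). MEKi exceeded CD40 Ab tumors by 0.79 ± 0.18 (adjusted p = 0.0345), a call lost without any 1 array other than CD40 Ab replicate 1 (log2 FC 0.65 to 0.87, highest adjusted p = 0.108). MEKi/CD40 Ab tumors were 0.46 lower than MEKi tumors on the log2 scale with no overlap (log2 FC -0.46 ± 0.10, adjusted p = 0.0514). The adjusted p of this value lay between 0.0322 and 0.303 under the other settings that kept every array and used no tissue covariate, and with muscle and skin covariates the value was -0.05 (adjusted p = 0.987).

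Jun, the AP-1 subunit that can activate its own promoter, was the member that stood highest in the combination. Its signal was 10.43, 10.13, 10.19 and 10.28 in MEKi/CD40 Ab tumors, 9.81, 9.85 and 9.48 in MEKi tumors, 10.00, 9.80, 9.92 and 9.71 in CD40 Ab tumors, and 9.90, 9.97, 9.91 and 10.22 in control tumors. MEKi/CD40 Ab tumors were above MEKi and CD40 Ab tumors without overlap, and MEKi tumors were below every control tumor. The log2 FC was 0.40 ± 0.09 against CD40 Ab (adjusted p = 0.039), 0.54 ± 0.12 against MEKi (adjusted p = 0.053) and 0.26 ± 0.09 against control (adjusted p = 0.0994). The call against CD40 Ab tumors was lost without any 1 array other than CD40 Ab replicate 1 (log2 FC 0.34 to 0.44, highest adjusted p = 0.102). The value against control passed without control replicate 4 (0.33, adjusted p = 0.0371).

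Junb, a JUN protein with weaker transactivation than Jun, stayed within narrow limits. It ranged from 9.93 to 10.40 in MEKi/CD40 Ab tumors, from 10.21 to 10.30 in MEKi tumors, from 9.86 to 10.29 in CD40 Ab tumors and from 10.07 to 10.29 in control tumors. All groups overlapped. The 95% interval of the log2 FC was -0.28 to 0.20 in MEKi/CD40 Ab, -0.06 to 0.31 in MEKi and -0.29 to 0.15 in CD40 Ab against control tumors.

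Egr1, a zinc finger factor induced by ERK through serum response factor sites, was lowest in the combination. Its values were 9.63, 9.06, 9.45 and 9.27 in MEKi/CD40 Ab tumors, 11.11, 9.53 and 10.33 in MEKi tumors, 10.51, 10.32, 10.21 and 9.94 in CD40 Ab tumors, and 10.17, 10.29, 10.19 and 10.14 in control tumors. MEKi/CD40 Ab tumors lay below all CD40 Ab and control tumors, and MEKi tumors spanned a wider range than any other group. The log2 FC was -0.84 ± 0.11 against control, a 0.557-fold signal (adjusted p = 0.00136), and -0.89 ± 0.15 against CD40 Ab tumors (adjusted p = 0.0127). In MEKi against control tumors it was 0.13 with a 95% interval of -0.58 to 0.83, and without MEKi replicate 1 it was -0.27. Against MEKi tumors, MEKi/CD40 Ab gave -0.97 ± 0.33 (adjusted p = 0.177), which passed without MEKi replicate 2 (-1.37, adjusted p = 0.0385) and in the fit of all 15 arrays (adjusted p = 0.0337), but not with muscle and skin covariates (-1.45, adjusted p = 0.297).

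Egr2, a relative of Egr1 with roles in lymphocytes, macrophages and Schwann cells, did not pass in any comparison. It measured 6.05, 6.31, 6.48 and 6.07 in MEKi/CD40 Ab tumors, 7.07, 5.81 and 6.52 in MEKi tumors, 7.00, 6.48, 5.88 and 5.97 in CD40 Ab tumors, and 5.93, 6.29, 6.08 and 6.20 in control tumors. The groups overlapped, and the highest signals were those of MEKi replicate 1 and CD40 Ab replicate 1. The log2 FC in MEKi against control was 0.34 with a 95% interval of -0.25 to 0.93, and without MEKi replicate 2 it was 0.67 (adjusted p = 0.0377). Over the 15 deviations from the group means, Egr1 and Egr2 had a Pearson r of 0.76, given as a description.

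The interaction asks whether adding the antibody moved a gene differently in inhibitor-treated and in vehicle-treated tumors, and limma fitted it to the 15 arrays as the antibody difference with the inhibitor less the one without it. Jun passed with 0.69 ± 0.15 (95% interval 0.36 to 1.01, adjusted p = 0.0251), 1 of 9 members, where 4.56% of all genes passed. The antibody difference in Jun was 0.54 with the inhibitor and -0.14 without it. Egr1 had -1.02 ± 0.35 (adjusted p = 0.141) and Fosl1 -0.65 ± 0.24 (adjusted p = 0.164), and neither passed with all arrays. The interaction was lost for Jun without control replicate 2 (0.70, adjusted p = 0.0504), without CD40 Ab replicate 4 (0.64, adjusted p = 0.0523) and without MEKi replicate 3 (0.57, adjusted p = 0.0635), and it passed for Egr1 without MEKi replicate 2 (-1.42, adjusted p = 0.009). With the tumor series as a covariate Jun had a value of 0.78 (adjusted p = 0.157), and the fit with tissue levels as covariates gave 1.02 (adjusted p = 0.0848), so neither passed. For Etv4 and Etv5 it was 0.01, with an interval of -0.26 to 0.28, and -0.10, with an interval of -0.34 to 0.14.

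**Figure D3:**
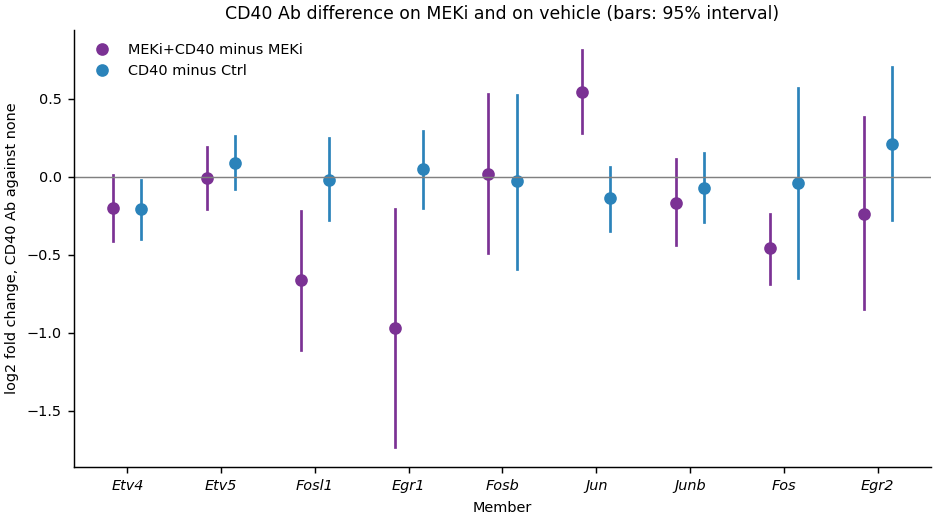
Log2 FC (y axis) of each member (x axis) for CD40 Ab against none, in MEKi-treated tumors (MEKi+CD40 minus MEKi) and in vehicle-treated tumors (CD40 minus Ctrl), with 95% intervals of the 2-group limma fits as bars. For Jun the MEKi+CD40 minus MEKi value was 0.54 and the CD40 minus Ctrl value -0.14, and for Etv5 the values were -0.01 and 0.09.

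Other probe sets that carry only a member's symbol were read in the same way. A second Fosl1 probe set gave -1.15 ± 0.12 in MEKi/CD40 Ab against control (adjusted p = 0.00049) and -0.56 ± 0.18 in MEKi against control (adjusted p = 0.0737). Unlike on the brighter one, MEKi tumors (6.06 to 6.86) lay below all control tumors (6.96 to 7.30) and overlapped MEKi/CD40 Ab tumors (5.58 to 6.10). A second Jun probe set read 9.16, 8.65, 8.63 and 8.93 in MEKi/CD40 Ab tumors and 8.23, 8.42, 7.86 and 8.26 in control tumors, with no overlap, and its log2 FC of 0.65 ± 0.15 passed (adjusted p = 0.017), unlike that of the brighter probe set. The 2 Jun probe sets also differed in MEKi against control, at 0.19 and -0.29, of which neither passed, and the dimmer one had an interaction of 0.46 (adjusted p = 0.233). For Etv5, the other probe sets gave -0.42 (adjusted p = 0.117) and -0.47 (adjusted p = 0.0104) in MEKi/CD40 Ab against control. A dim second Etv4 probe set fell by 0.36 in MEKi/CD40 Ab tumors (adjusted p = 0.035) and by 0.62 in MEKi tumors (adjusted p = 0.0163). The second Egr2 probe set gave 0.02 in MEKi/CD40 Ab and 0.53 in MEKi against control (adjusted p = 0.893 and adjusted p = 0.158).

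**Figure D4:**
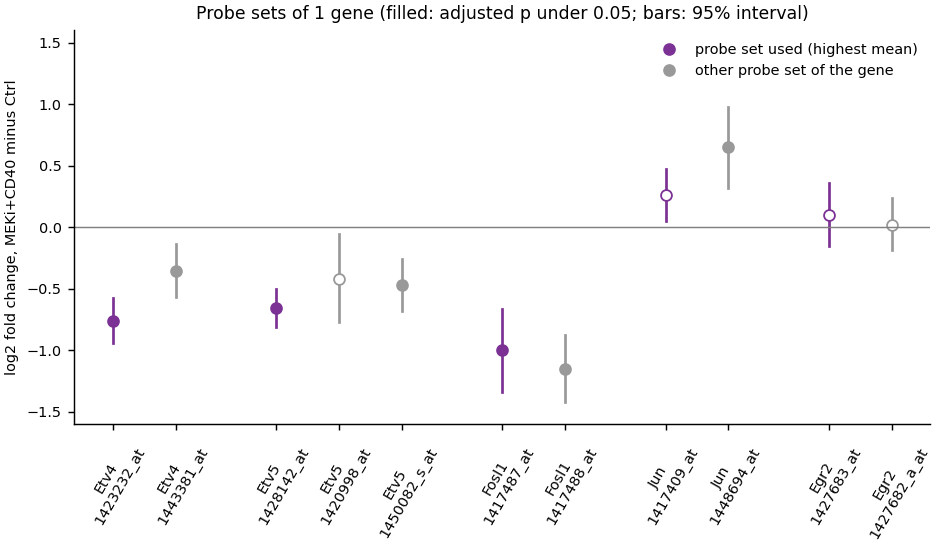
Log2 FC in MEKi+CD40 minus Ctrl tumors (y axis) of each probe set (x axis) of the 5 members with more than 1, with 95% intervals as bars and filled points for adjusted p under 0.05. For Fosl1, Etv4 and Etv5 every probe set lies below 0, and for Jun the brighter probe set stands at 0.26 and the dimmer one at 0.65.

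The genes through which ERK dampens its own pathway, the dual-specificity phosphatases, Sprouty and Spred proteins and their like, were set beside the members. Of 11 such feedback genes, 9 fell and 0 rose in MEKi/CD40 Ab against control tumors, with a median log2 FC of -0.48 beside -0.04 over all genes. There, 19.0% of all genes passed in either direction and 8.72% downward. Dusp4, a nuclear phosphatase of ERK, gave -1.06 ± 0.14 (adjusted p = 0.00115), Spry2 -0.63 ± 0.08 (adjusted p = 0.000869) and Dusp5 -0.56 ± 0.08 (adjusted p = 0.00219). In MEKi against control tumors only Dusp4 (-1.13 ± 0.21, adjusted p = 0.0088), Spred3 (-0.91 ± 0.09, adjusted p = 0.000743) and Spred2 (-0.74 ± 0.07, adjusted p = 0.000654) fell, Spry1 rose (0.70 ± 0.13, adjusted p = 0.01), and the median was -0.05. In that comparison 21.1% of all genes passed in either direction and 10.4% downward. In CD40 Ab against control tumors 0 of the 11 passed, where 1.06% of all genes passed. The interaction passed for Dusp5 (-1.13 ± 0.21, adjusted p = 0.0104) and Spry4 (-0.88 ± 0.22, adjusted p = 0.0429), where 4.56% of all genes passed.

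**Figure D5:**
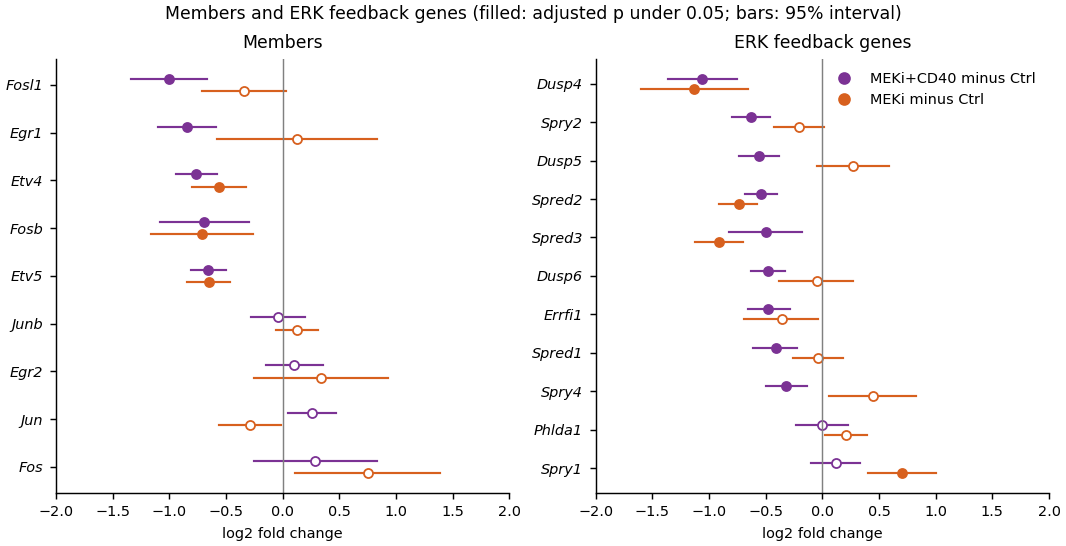
Log2 FC (x axis) in MEKi+CD40 minus Ctrl and MEKi minus Ctrl tumors for the 9 members (left) and the 11 ERK feedback genes (right), with 95% intervals as bars and filled points for adjusted p under 0.05. Of the feedback genes 9 have filled points in MEKi+CD40 and 4 in MEKi tumors, beside 5 and 3 of the members. Of all genes, 19.0% and 21.1% passed in these comparisons in either direction.

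Of 30 other immediate early genes, 5 rose and 4 fell in MEKi/CD40 Ab tumors and 6 rose and 6 fell in MEKi tumors against control, with medians of -0.03 and 0.00, beside 19.0% and 21.1% of all genes called in either direction. Atf3, a stress-induced AP-1 partner, averaged 7.58 ± 0.17 (n = 4) in MEKi/CD40 Ab, 6.83 ± 0.01 (n = 3) in MEKi, and 8.17 ± 0.29 (n = 4) in control tumors (SD). It fell in both comparisons (log2 FC -0.59, adjusted p = 0.0221, and -1.34, adjusted p = 0.00108) and was higher in MEKi/CD40 Ab than in MEKi tumors by 0.75 ± 0.10 (adjusted p = 0.00932). Among genes that rose in MEKi tumors were Btg2, an antiproliferative gene (1.1 ± 0.16, adjusted p = 0.00327), Zfp36, which destabilizes cytokine mRNAs (0.90 ± 0.15, adjusted p = 0.00671), and Fosl2, the AP-1 subunit Fra-2 (0.77 ± 0.08, adjusted p = 0.000846). Cyr61, a matricellular gene, Gadd45b, a stress gene, and Zfp36 rose in MEKi/CD40 Ab tumors (0.89, 0.55 and 0.52, highest adjusted p = 0.0163). Sgk1, a serum-induced kinase, fell in both (-0.43, adjusted p = 0.0198, in MEKi/CD40 Ab and -0.93, adjusted p = 0.00257, in MEKi tumors). In CD40 Ab against control tumors 0 of the 30 passed, where 1.06% of all genes passed.

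Of 16 partners and regulators of these factors, 5 rose and 3 fell in MEKi/CD40 Ab and 2 rose and 3 fell in MEKi tumors against control. Beside these counts, 19.0% and 21.1% of all genes were called in either direction. Batf2, a partner of JUN proteins induced by interferon, rose in all 3 treated groups, by 1.42 ± 0.20 in MEKi/CD40 Ab (adjusted p = 0.00195), 1.23 ± 0.17 in MEKi (adjusted p = 0.00258) and 1.25 ± 0.21 in CD40 Ab tumors (adjusted p = 0.0332). The last call was not stable: without control replicate 1, 2 or 3 or CD40 Ab replicate 4, 0 genes passed in CD40 Ab against control, Batf2 included. The epithelial ETS factors Ehf and Elf3 rose in MEKi/CD40 Ab tumors (1.04 ± 0.17, adjusted p = 0.00351, and 0.96 ± 0.19, adjusted p = 0.00842). Ehf averaged 10.16 in MEKi/CD40 Ab, 10.03 in MEKi, 9.25 in CD40 Ab and 9.12 in control tumors. For Elf3 these means were 9.21, 8.84, 8.24 and 8.25. Nab2, a corepressor of EGR factors, fell in MEKi/CD40 Ab tumors by 0.45 (adjusted p = 0.0498). Cic, the repressor of PEA3 genes that ERK inactivates, fell in MEKi tumors (-0.38 ± 0.08, adjusted p = 0.0179) and passed the interaction (0.41 ± 0.09, adjusted p = 0.0292). The interaction passed for 4.56% of all genes. Of the MEK and ERK cascade, 12 of 18 listed genes were measured. Of these, 1 rose and 2 fell in MEKi/CD40 Ab and 2 rose and 3 fell in MEKi against control, beside the same 19.0% and 21.1%. The kinase gene Mapk8 fell by 0.41 in MEKi/CD40 Ab (adjusted p = 0.00398) and by 0.32 in MEKi tumors (adjusted p = 0.0232). The scaffold gene Ksr1 rose in MEKi tumors (0.45 ± 0.08, adjusted p = 0.00705), and Rps6ka3, a kinase downstream of ERK, rose in both (0.30, adjusted p = 0.0223, in MEKi/CD40 Ab and 0.36, adjusted p = 0.0191, in MEKi tumors). Map2k1, which encodes MEK1, was lower in MEKi/CD40 Ab (-0.33 ± 0.08, adjusted p = 0.0213) and MEKi tumors (-0.64 ± 0.18, adjusted p = 0.0448).

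Genes known as AP-1 or PEA3 targets were read from a list of 18. Of 15 measured, 1 rose and 3 fell in MEKi/CD40 Ab and 4 rose and 2 fell in MEKi tumors against control, beside 19.0% and 21.1% of all genes called in either direction. Mmp9, the gelatinase of invading tumor and myeloid cells, averaged 9.67 ± 1.24 in MEKi/CD40 Ab and 7.44 ± 0.52 in control tumors (SD, n = 4 each) and rose by 2.23 ± 0.54 (SE, adjusted p = 0.023). Its mean was 8.07 ± 0.39 in MEKi (n = 3) and 8.88 ± 0.96 in CD40 Ab tumors (SD, n = 4). The CD40 Ab tumors, at 8.15 to 10.25, lay within the range of MEKi/CD40 Ab tumors, 8.00 to 10.94. Hbegf, an EGFR ligand, fell by 0.40 in MEKi/CD40 Ab (adjusted p = 0.00878), and Cd44, a hyaluronan receptor, fell by 0.33 (adjusted p = 0.00487). Mmp3, a stromal protease gene, rose in MEKi tumors by 2.05 ± 0.16 (adjusted p = 0.000268). Plaur, the urokinase receptor gene, ranged from 9.30 to 9.52 in MEKi/CD40 Ab, from 10.18 to 10.41 in MEKi, from 9.46 to 9.94 in CD40 Ab and from 9.58 to 9.82 in control tumors. It rose in MEKi (0.59 ± 0.09, adjusted p = 0.00405) and fell in MEKi/CD40 Ab against control (-0.27 ± 0.07, adjusted p = 0.0418), and its interaction was -0.83 ± 0.14 (adjusted p = 0.00672). The interaction passed for 4.56% of all genes.

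Genes whose pattern over the 15 arrays was most like that of a member were named by the highest Pearson r among 10282 other genes with a mean of at least 6, as a description in which the arrays share treatment groups and tissue content. For Etv5 these were Prxl2c, Abcb1a and Hmga2 (r = 0.96, 0.96 and 0.95), and for Etv4 Txnl1, Polh and Pole3 (r = 0.94 each). For Fosl1 they were Pim3, Btc and Atp6v1h (r = 0.94, 0.94 and 0.93), and for Jun Fbh1, Ramp1 and Fbxo32 (r = 0.90, 0.90 and 0.89). Egr1 was followed most closely by Dusp6, the ERK phosphatase, at r = 0.89, then by Slc20a1 and Twist1 (0.87 and 0.86). Over the deviations from group means the nearest to Egr1 were Twist1, Cnn3 and Thbd (r = 0.95, 0.92 and 0.91), and for Etv5 Vasp, Tob2 and Rassf3 (r = 0.86, 0.86 and 0.85). The nearest to Junb on both scales was Lif (r = 0.87 and 0.88), to Fosb Pak3 (r = 0.88 and 0.86), to Fos Gas2l1 and Tcim (r = 0.84 and 0.83), and to Egr2 Ramp2 and Spata6 (r = 0.88 and 0.92).

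Markers of several tissues and cell types differed between the groups, and the lists did not all change alike. Against control, 19.0% of all genes passed in either direction in MEKi/CD40 Ab, 21.1% in MEKi and 1.06% in CD40 Ab tumors. The mean level of 12 skeletal muscle genes was 8.11 to 9.67 in MEKi/CD40 Ab, 7.65 to 10.69 in MEKi, 4.18 to 6.36 in CD40 Ab and 4.21 to 6.97 in control tumors, and 11 of the 12 passed upward in MEKi/CD40 Ab and 3 in MEKi against control tumors. MEKi replicate 1, which had the highest Egr1 and Egr2 signals, also had the highest level of the 15 arrays for the muscle (10.69), fibroblast (12.11), neutrophil (7.21) and endothelial lists (6.65). It was not the highest for the skin (6.99), macrophage (10.44), T cell (6.25), epithelial tumor cell (10.66), Schwann cell (7.12) or adipocyte lists (5.46). The 11 measured skin keratinocyte genes averaged 4.74 to 5.57 in MEKi/CD40 Ab, 6.99 to 7.77 in MEKi, 4.90 to 6.04 in CD40 Ab and 4.87 to 6.49 in control tumors. They rose against control in MEKi tumors (7 up, 0 down), but not in MEKi/CD40 Ab tumors (0 up, 1 down). The 10 fibroblast genes averaged 10.24 to 10.65 in MEKi/CD40 Ab, 11.38 to 12.11 in MEKi, 9.17 to 10.24 in CD40 Ab and 9.61 to 9.86 in control tumors, with 4 upward calls in MEKi/CD40 Ab and 10 in MEKi against control. Of 10 macrophage genes, 9 rose in MEKi/CD40 Ab, 1 in MEKi and 5 in CD40 Ab against control tumors. Of 7 neutrophil genes, 5 rose in MEKi/CD40 Ab, 5 in MEKi and 0 in CD40 Ab tumors, and of 8 T cell genes, 6 rose in MEKi/CD40 Ab, 0 in MEKi and 2 in CD40 Ab tumors. The macrophage and T cell calls in CD40 Ab tumors were not stable. Without control replicate 1, 2 or 3 or CD40 Ab replicate 4, 0 genes passed in CD40 Ab against control. The muscle actin Acta1 had means of 10.93 in MEKi/CD40 Ab, 10.83 in MEKi, 7.49 in CD40 Ab and 8.23 in control tumors, and the hair follicle keratin Krt25 had 3.44 in MEKi/CD40 Ab, 9.39 in MEKi, 3.03 in CD40 Ab and 4.43 in control tumors. Some genes of the skin list did not follow Krt25. In MEKi and control tumors, Ivl averaged 5.19 and 5.45, Lor 5.33 and 5.23, and Krt10 7.8 and 7.68. Other lists changed little against control. Of 7 endothelial genes, 1 rose in MEKi/CD40 Ab and 1 fell in MEKi tumors, and of 5 Schwann cell genes, 2 rose in each. In CD40 Ab tumors 0 genes of these 2 lists passed, and 0 of 4 adipocyte genes passed in any treated group. Of the 9 epithelial tumor cell genes, 2 rose and 0 fell in MEKi/CD40 Ab and 2 rose and 1 fell in MEKi against control tumors. Their members differed: the ductal keratin Krt19 was at 13.25 in MEKi/CD40 Ab, 13.42 in MEKi, 13.10 in CD40 Ab and 13.12 in control tumors, while the adhesion gene Epcam was at 10.15 in MEKi/CD40 Ab, 10.94 in MEKi, 8.53 in CD40 Ab and 8.12 in control tumors.

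With the muscle and skin levels as covariates in a fit of all 15 arrays, Etv4 and Etv5 still passed in MEKi/CD40 Ab against control (-0.80, adjusted p = 0.0104, and -0.81, adjusted p = 0.00295). Fosl1 (-0.96, adjusted p = 0.0636), Egr1 (-1.24, adjusted p = 0.0962) and Fosb (-0.70, adjusted p = 0.492) did not, whereas the same fit without covariates kept the calls for Fosl1 and Egr1. In MEKi against control Etv5 passed (-0.76, adjusted p = 0.0261) and Etv4 did not (-0.47, adjusted p = 0.259), and Fos in MEKi against CD40 Ab tumors was 0.21 (adjusted p = 0.936). Of the members called in MEKi/CD40 Ab against CD40 Ab tumors, Etv5 passed (-0.94, adjusted p = 0.00804), whereas Etv4 (-0.59, adjusted p = 0.155), Fosl1 (-0.89, adjusted p = 0.242), Egr1 (-1.35, adjusted p = 0.217) and Jun (0.44, adjusted p = 0.359) did not. The part of the fibroblast and immune cell markers in these values was not tested.

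The tumor numbers in the sample titles formed a series under 10000 and a series from there on, and what divides them is not stated. All 4 MEKi/CD40 Ab tumors were of the lower and all 3 MEKi tumors of the upper series, so series and group cannot be told apart between them, while CD40 Ab tumors were 2 and 2 and control tumors 3 and 1. Within the lower series, MEKi/CD40 Ab against control gave -0.80 for Etv4, -0.64 for Etv5, -1.05 for Fosl1 and -0.86 for Egr1 (highest adjusted p = 0.00571), and -0.59 for Fosb (adjusted p = 0.0699). Against CD40 Ab tumors of that series it gave -0.58 for Etv4, -0.73 for Etv5, -1.15 for Fosl1 and -1.06 for Egr1 (highest adjusted p = 0.0312), and 0.36 for Jun (adjusted p = 0.154). In MEKi against control tumors with the series as a covariate, Etv4 was -0.44 (adjusted p = 0.242), Etv5 -0.70 (adjusted p = 0.0553) and Fosb -1.01 (adjusted p = 0.14), where the upper series held 1 control tumor. In MEKi against CD40 Ab tumors with the series as a covariate, Fos was 1.08 (adjusted p = 0.00913) and Etv5 -0.76 (adjusted p = 0.0244).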

How the data were processed

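RNA of whole tumor pieces was hybridized to Affymetrix mouse whole-genome expression arrays, and the authors deposited RMA values (background-corrected, quantile-normalized probe set summaries) on the log2 scale. The version of RMA is not given in the sources used here. The table holds 45101 probe sets on 15 arrays. After 64 control probe sets were left out, 45037 were tested, of which 34945 carry 1 gene symbol, 932 several and 9160 none in the platform annotation. Counts over genes use 1 probe set for each of 18193 genes, the one with the highest mean. Array medians ran from 5.16 to 5.24. The number of arrays limits the precision.

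Each comparison was fitted with limma 3.58.1 (R 4.3.3, lmFit and eBayes) on the arrays of its 2 groups, and the interaction on all 15 arrays. P-values were two-sided and adjusted by Benjamini-Hochberg over all 45037 probe sets, with 0.05 as the threshold. They measure the spread between these tumors. The fit was also run on simulated data with independent noise. Those data held no tumor series or tissue differences, so that run cannot show how such differences affect the calls. Groups come from the sample labels.

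The members, the gene lists and the alternatives were chosen with earlier results of these data known. Every member is named whatever its values. From each list, the genes named come from up to 3 past the threshold in each direction of each comparison, by the size of the log2 FC. Likeness names up to 3 genes for each member. Some listed genes are not reported here. Alternatives were other variance estimates, array weights, median centring, filters on dim or cross-hybridizing probe sets, the mean of a gene's probe sets, the replicate block, the tumor number series, the muscle and skin levels, and leaving out each array.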

Additional observations from a re-analysis of the deposited data

Results flagged for a closer look

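In 27 groups of 4 arrays tested for an outlying array over the members, 1 stood apart: the Fosl1 signal of MEKi/CD40 Ab replicate 1, 7.50, beside 8.09 to 8.11 in the other 3 tumors of that group. Chance alone flags about 1 in 20 such groups. Without that tumor Fosl1 still passed in MEKi/CD40 Ab against control.

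The difference of MEKi/CD40 Ab against MEKi and that of CD40 Ab against control were tested against each other by the limma interaction on all 15 arrays. Past the threshold were Jun among the members (0.69, adjusted p = 0.0251) and, among the listed pathway genes, Ier2, an immediate early gene (-0.54, adjusted p = 0.0411), Dusp5 (-1.13, adjusted p = 0.0104), Spry4 (-0.88, adjusted p = 0.0429), Cic (0.41, adjusted p = 0.0292) and Plaur (-0.83, adjusted p = 0.00672). By list these were 1 of 30 other immediate early genes, 2 of 11 feedback genes, 1 of 16 partners and regulators, 1 of 15 targets and 0 of 12 cascade genes. Of all genes, 4.56% passed. All MEKi/CD40 Ab tumors have numbers of the lower series and all MEKi tumors of the upper, and with the series as a covariate the Jun value was 0.78 (adjusted p = 0.157). With that covariate 51 genes passed.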

How the results depend on the processing

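Across 1172 values of the members under the alternatives, 1100 stayed on their side of the threshold, of which 73 that never passed changed sign, 51 no longer passed and 21 newly passed. Of values that passed in either fit, 0 turned direction. Every value below is a count of members or genes called by limma, and the cause of a change was not tested.

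In MEKi/CD40 Ab against control, muscle and skin covariates left 2 members and 521 genes, and leaving out 1 array gave 2244 to 3176 genes. In MEKi against control, the tumor series covariate left 0 members and 415 genes, muscle and skin covariates 1 and 419, and leaving out 1 array 2417 to 4210 genes. In CD40 Ab against control, genes numbered 18 in the fit of all 15 arrays, 8 in the lower series, 57 with muscle and skin covariates and 0 to 197 without 1 array. In MEKi/CD40 Ab against MEKi, members numbered 3 in the fit of all 15 arrays, 2 with an intensity trend and robust prior or a mean of at least 6, and 1 with array weights, median centring or the mean of probe sets. Genes there numbered 2032 in the fit of all 15 arrays and 815 with the trend and robust prior. They numbered 631 of 10290 with a mean of at least 6, 992 with array weights, 792 with median centring and 1053 with the mean of probe sets. Muscle and skin covariates left 28 genes, and without 1 array there were 0 to 1 members and 267 to 1178 genes. In MEKi/CD40 Ab against CD40 Ab, the covariates left 1 member and 106 genes, the lower series 564 genes, and leaving out 1 array 539 to 1008. In MEKi against CD40 Ab, genes numbered 4355 in the fit of all 15 arrays, 805 with the series and 46 with muscle and skin covariates (0 members), and without 1 array 1135 to 2430 genes and 1 to 2 members. The interaction had 0 members with either covariate, 51 genes with the series and 55 with muscle and skin, and without 1 array 0 to 2 members and 451 to 1186 genes.

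Same-numbered tumors did not deviate together throughout (r from -0.28 to 0.21). Deviations from means of 3 or 4 arrays cannot settle whether the numbers pair the samples. The sample titles do not say what the numbers stand for, and the main fits used no pairing. With the replicate block, genes called were 1786 in MEKi against control, 116 in MEKi/CD40 Ab against MEKi, 497 in MEKi/CD40 Ab against CD40 Ab and 1253 in MEKi against CD40 Ab, where 1 member was called. With median centring, 42.3% of the genes called in MEKi/CD40 Ab against control were higher, beside 54.2% without it, and 48.3% beside 59.4% against CD40 Ab. The series covariate was not run for MEKi/CD40 Ab against MEKi, where it coincides with the groups. Dim signals such as Fosb, below the array medians, limit what can be read from fold changes.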
